A study of Mus musculus with 18 samples.

Results

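The genes described here are 33 genes of cholesterol and lipid handling, taken by symbol from a fixed list. They comprise 17 enzymes that build cholesterol from acetyl units (7 of the mevalonate pathway and 10 of the sterol pathway that follows it), 4 genes of the SREBP machinery, 2 other SREBP-linked genes, 2 genes of fatty acid synthesis, 5 genes of the LXR and lipid export programme, and 3 genes of cholesterol storage and lysosomal egress. All 33 were found among the 55573 genes of the count table, and all 33 were among the 13443 genes that passed the filter on low counts.

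A cell whose endoplasmic reticulum is poor in sterol lets SCAP carry SREBP2 to the Golgi, where the factor is cleaved and released to switch on the genes of cholesterol synthesis and uptake, and INSIG1 holds this complex back when sterol is plentiful. LXRα, the product of Nr1h3, is activated by oxysterols and switches on genes that move cholesterol out of the cell, among them Abca1, Abcg1 and Apoe. It also switches on Mylip, whose product marks the LDL receptor for degradation. Macrophages that clear dying cells depend on the export of cholesterol, and both arms are known to respond to inflammatory signals such as lipopolysaccharide (LPS).

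The study asked how the transcription factor ZEB1 and the drug metformin act on macrophages in acute inflammation and in the immunosuppressed state that follows repeated LPS. Macrophages were collected by peritoneal lavage from C57BL/6 mice, sorted as CD11b+ F4/80+ cells, pooled from 2 to 3 mice per sample and sequenced as bulk mRNA. The 18 libraries formed 6 groups of 3. Zeb1ΔM mice (Zeb1f/f LysM Cre) carry floxed Zeb1 alleles together with Cre driven by the LysM promoter, which is active in macrophages, neutrophils and other myeloid cells, and Zeb1WT mice (Zeb1f/f) carry the same floxed alleles without Cre. Mice of each genotype received either 2 doses of LPS (LPS + LPS), metformin ahead of 1 dose of LPS (Metformin + LPS), or vehicle ahead of 1 dose of LPS (LPS). Every group had thus been given LPS, no unstimulated macrophages enter any comparison, and Cre itself was present only in Zeb1ΔM mice. The age of the mice is not given in the labels. Since nothing else separates the replicates of a group, p-values measure the spread between these pooled samples, and in such bulk samples fewer cells of a type and less RNA per cell cannot be told apart.

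Libraries held 14053706 to 30570439 counts. Scaling factors of the trimmed mean of M-values (TMM) ran between 1.42 and 1.56 in LPS + LPS libraries, between 0.445 and 0.879 in Metformin + LPS libraries and between 0.867 and 1.06 in LPS libraries, so the composition of the libraries moved with treatment. After Metformin + LPS the factors also differed by genotype, at 0.843 to 0.879 in Zeb1ΔM and 0.445 to 0.708 in Zeb1WT. Levels after Metformin + LPS, and genotype differences within that treatment, carry this scaling. All Metformin + LPS libraries carry library codes of a series that no other library carries, hence metformin and the code series cannot be told apart and no value within a series can be had. Zeb1ΔM Metformin + LPS replicate 3 stood apart from its group: its 10 most abundant genes took 14.02% of counts, against 21.9% and 23.5% in the other 2 libraries. Zeb1 had 2.30, 3.01 and 1.38 CPM (counts scaled by TMM to a common library total) in Zeb1ΔM LPS libraries, against 6.41, 6.69 and 7.21 CPM in Zeb1WT LPS libraries. The difference was called after LPS (log2 difference -1.60 ± 0.36 SE, edgeR adjusted p = 0.0305) and after Metformin + LPS (log2 difference -1.55 ± 0.35 SE, edgeR adjusted p = 0.0123). It was not called after LPS + LPS (log2 difference -0.88 ± 0.37 SE, edgeR adjusted p = 0.352), where the libraries overlapped. There Zeb1 had 22, 22 and 16 counts in Zeb1ΔM and 25, 66 and 34 counts in Zeb1WT, so that comparison rests on few reads. Against LPS, Zeb1 fell after LPS + LPS in Zeb1WT (log2 fold change -2.18 ± 0.36 SE, edgeR adjusted p = 0.000115). It also fell in Zeb1ΔM (log2 fold change -1.46 ± 0.38 SE, edgeR adjusted p = 0.00620). Here and throughout, a change is called at an adjusted p under 0.05 in edgeR's quasi-likelihood test over all 18 libraries, with Benjamini-Hochberg adjustment over the 13443 genes.

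The upstream regions of the genes were read from RefSeq (GRCm38.p6) as windows running from 250 bases before to 50 bases after each annotated start, which were found for 26 of the 33 genes. Some genes had more than 1 window, such as Pmvk with 2 and Dhcr7 with 3. A gene was counted for a motif when any of its windows held it. Shares of all windows are per window, so gene counts and window shares are not like measures. The 4 windows shown belong to an early enzyme not called under either treatment (Hmgcs1), the mevalonate enzyme with the smallest adjusted p after LPS + LPS (Mvd), the sterol sensor that fell after LPS + LPS (Insig1) and an exporter that fell after LPS + LPS (Abca1). Capitals mark the motifs searched on both strands: the core of the sterol regulatory element TCACNCCAC, the CCAAT box (ATTGG when it lies on the other strand) and the E-box CACGTG.
Hmgcs1: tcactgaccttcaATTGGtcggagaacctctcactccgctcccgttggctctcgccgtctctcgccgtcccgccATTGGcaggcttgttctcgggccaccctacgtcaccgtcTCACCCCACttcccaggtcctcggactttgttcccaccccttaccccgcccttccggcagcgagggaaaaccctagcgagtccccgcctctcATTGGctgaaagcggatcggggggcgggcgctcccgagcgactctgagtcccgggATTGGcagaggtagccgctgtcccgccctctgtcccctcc
Mvd: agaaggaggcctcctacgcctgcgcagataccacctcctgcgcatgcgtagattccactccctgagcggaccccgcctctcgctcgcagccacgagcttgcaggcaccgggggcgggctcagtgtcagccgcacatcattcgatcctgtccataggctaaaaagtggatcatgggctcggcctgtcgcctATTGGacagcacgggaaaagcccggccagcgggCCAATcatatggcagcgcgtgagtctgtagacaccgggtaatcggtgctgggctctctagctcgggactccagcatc
Insig1: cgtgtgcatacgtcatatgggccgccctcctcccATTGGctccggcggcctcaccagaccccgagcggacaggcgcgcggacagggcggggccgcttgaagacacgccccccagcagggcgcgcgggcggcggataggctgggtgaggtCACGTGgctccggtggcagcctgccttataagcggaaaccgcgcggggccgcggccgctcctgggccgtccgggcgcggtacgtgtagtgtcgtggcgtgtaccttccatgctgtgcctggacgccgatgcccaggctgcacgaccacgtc
Abca1: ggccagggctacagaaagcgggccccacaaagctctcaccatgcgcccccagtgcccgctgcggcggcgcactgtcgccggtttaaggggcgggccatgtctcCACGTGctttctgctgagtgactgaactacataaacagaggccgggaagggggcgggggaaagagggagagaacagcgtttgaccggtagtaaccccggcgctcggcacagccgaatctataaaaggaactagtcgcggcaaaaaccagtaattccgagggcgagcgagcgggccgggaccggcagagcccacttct
They lie at chr13:119690101-119690400 (plus strand), chr8:122443373-122443672 (minus strand), chr5:28071162-28071461 (plus strand) and chr4:53159846-53160145 (minus strand), in the order printed and each written 5′ to 3′ on the strand of its gene. All 33 are protein-coding genes, and among others the results turn on, Idi1 lies at chr13:8885501-8892451, Fdps at chr3:89093588-89101959, Scd2 at chr19:44293674-44306864, Nr1h3 at chr2:91184061-91202834 and Apoe at chr7:19696109-19699188 (GENCODE vM21, GRCm38). The sterol regulatory element core, with any base at N, was found in 1 of the 26 genes, Hmgcs1, 137 to 129 bases before its start, and in 1.24% of all 32851 windows. A CCAAT box was found in 21 of the 26 genes, in 14 of the 14 enzymes with a window but in 1 of the 4 LXR and export genes with a window (Mylip), and in 37.4% of all windows. The E-box was found in 6 of the 26 genes (Hsd17b7, Sc5d, Dhcr7, Scap, Insig1 and Abca1) and in 7.15% of all windows. The repeat AGGTCA with a 4-base spacer and a second AGGTCA, the classical LXR element, was found in 0 of the 26 genes and in 0.0152% of all windows. In the printed windows no match overlapped another, and such matches describe the letters only.

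**Figure D1:**
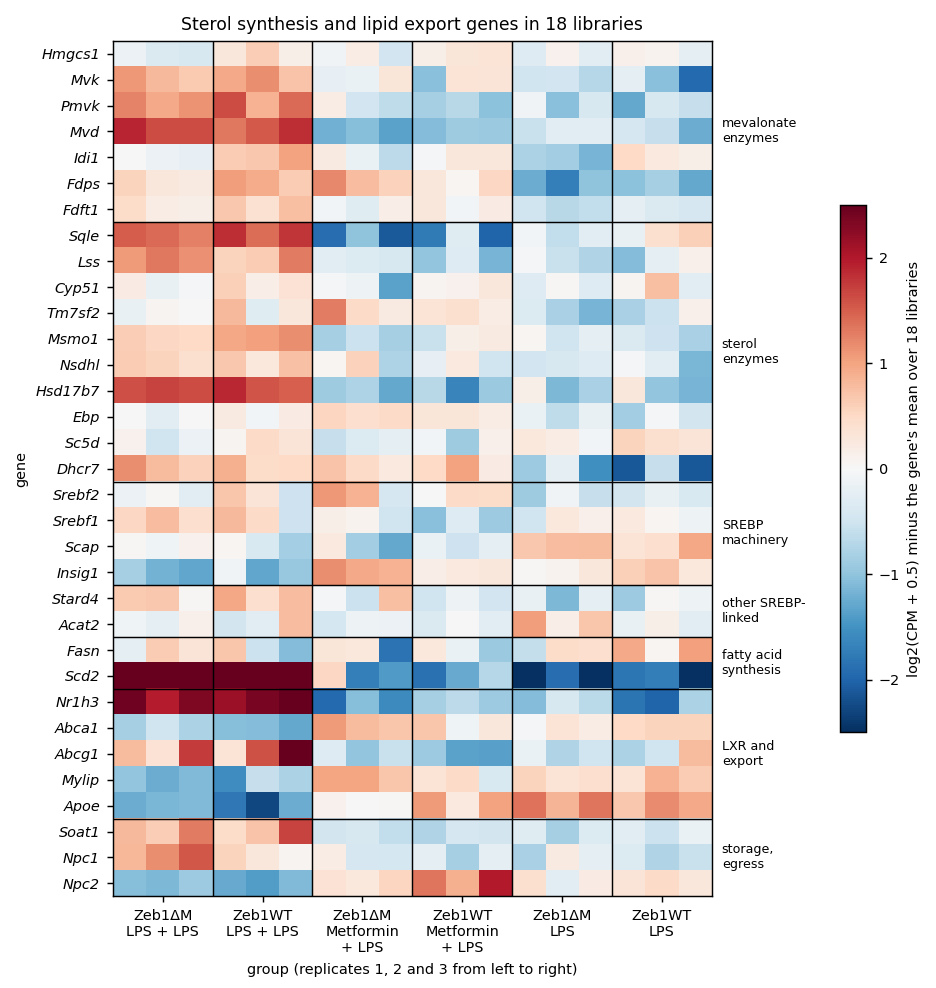
Level of the 33 genes in the 18 libraries, drawn as log2(CPM + 0.5) minus the gene's mean over all libraries, with groups from left to right and genes by role from top to bottom (red above and blue below the gene's own mean). Most mevalonate and sterol enzymes, Scd2 and Nr1h3 are red in the 6 LPS + LPS libraries, where Insig1, Abca1, Mylip, Apoe and Npc2 are mostly blue.

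LPS + LPS against LPS addresses the immunosuppressed state. After LPS + LPS 17 of the 33 genes rose and 6 fell in Zeb1ΔM macrophages, and 18 rose and 6 fell in Zeb1WT macrophages. Among all genes tested, 15.8% rose and 16.9% fell in Zeb1ΔM, and 18.6% rose and 18% fell in Zeb1WT. The median log2 fold change of the 33 genes was 0.90 in Zeb1ΔM and 0.92 in Zeb1WT, beside medians over all genes of 0.01 and 0.08. Most of the increases were of synthesis enzymes, of which 12 of 17 rose and none fell in either genotype, with medians of 1.01 in Zeb1ΔM and 1.31 in Zeb1WT. Of the members called, 21 were called in the same direction in both genotypes (16 higher and 5 lower), which is 91.3% of those called in Zeb1ΔM and 87.5% of those called in Zeb1WT, where the same shares over all genes were 75.9% and 67.8%.

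In the mevalonate pathway 6 of 7 enzymes rose in Zeb1ΔM and 5 of 7 in Zeb1WT. Mvd, the decarboxylase that yields isopentenyl diphosphate, had 47.6, 39.3 and 39.01 CPM in Zeb1ΔM LPS + LPS libraries, against 8.17, 9.99 and 9.99 CPM in Zeb1ΔM LPS libraries (log2 fold change 2.16 ± 0.22 SE, edgeR adjusted p = 8.53e-07). In Zeb1WT Mvd had 31.2, 36.6 and 45.6 CPM after LPS + LPS, against 9.05, 8.01 and 4.91 CPM after LPS (log2 fold change 2.36 ± 0.22 SE, edgeR adjusted p = 2.37e-07). Every LPS + LPS library was above every LPS library, and the fitted levels differed 4.47-fold in Zeb1ΔM and 5.14-fold in Zeb1WT. Fdps, which makes farnesyl diphosphate, the branch point toward sterols and prenylated proteins, had 24.2, 20.1 and 19.2 CPM after LPS + LPS in Zeb1ΔM, against 6.61, 4.69 and 7.95 CPM after LPS (log2 fold change 1.72 ± 0.24 SE, edgeR adjusted p = 1.99e-05). In Zeb1WT Fdps had 34.3, 31.7 and 25.7 CPM after LPS + LPS, against 7.84, 9.02 and 6.49 CPM after LPS (log2 fold change 1.97 ± 0.23 SE, edgeR adjusted p = 3.3e-06), again without overlap.

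The 2 kinases of the pathway followed the same course. Pmvk, phosphomevalonate kinase, stood at 16.6, 13.5 and 15.4 CPM after LPS + LPS in Zeb1ΔM, against 6.39, 3.01 and 5.04 CPM after LPS (log2 fold change 1.66 ± 0.33 SE, edgeR adjusted p = 0.000753). In Zeb1WT Pmvk stood at 21.99, 12.8 and 18.9 CPM after LPS + LPS, against 2.51, 5.02 and 4.36 CPM after LPS (log2 fold change 2.18 ± 0.33 SE, edgeR adjusted p = 5.25e-05), with no overlap of libraries in either. Mvk, mevalonate kinase, was counted only 59 times in the 3 Zeb1ΔM LPS libraries and 49 times in the 3 Zeb1WT LPS libraries, so its log2 fold changes of 1.77 in Zeb1ΔM and 2.38 in Zeb1WT rest on few reads. Fdft1, squalene synthase and the first enzyme committed to sterols, rose by a log2 fold change of 0.90 ± 0.18 in Zeb1ΔM and 0.97 ± 0.18 in Zeb1WT, with separate libraries in both. Idi1, the isomerase between both isoprene units, had 21.7, 19.3 and 18.6 CPM after LPS + LPS in Zeb1ΔM, against 12.2, 11.5 and 9.27 CPM after LPS, and rose there (log2 fold change 0.86 ± 0.22 SE, edgeR adjusted p = 0.00525). In Zeb1WT Idi1 had 33.6, 34.4 and 43.6 CPM against 30.7, 25.7 and 23.9 CPM and missed the threshold (log2 fold change 0.48 ± 0.21 SE, edgeR adjusted p = 0.0871), although the libraries did not overlap. Hmgcs1, HMG-CoA synthase at the entry of the pathway, was not called in either genotype, with log2 fold changes of -0.15 ± 0.20 in Zeb1ΔM and 0.36 ± 0.20 in Zeb1WT.

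Of the 10 sterol enzymes, 6 rose in Zeb1ΔM and 7 in Zeb1WT. Sqle, squalene epoxidase, which catalyses a rate-limiting oxidation late in the pathway, had 24.9, 23.2 and 20.5 CPM after LPS + LPS in Zeb1ΔM, against 7.95, 5.25 and 6.83 CPM after LPS (log2 fold change 1.78 ± 0.41 SE, edgeR adjusted p = 0.00249). In Zeb1WT Sqle had 31.4, 22.7 and 30.2 CPM after LPS + LPS, against 7.26, 11.3 and 12.9 CPM after LPS (log2 fold change 1.43 ± 0.40 SE, edgeR adjusted p = 0.00896). All LPS + LPS libraries exceeded all LPS libraries in both genotypes. Lss, which closes squalene epoxide into lanosterol, rose by 1.75 ± 0.36 in Zeb1ΔM and 1.31 ± 0.36 in Zeb1WT on the log2 scale. Hsd17b7, a reductase of the sterol demethylation complex, had 9.49, 10.1 and 9.75 CPM after LPS + LPS in Zeb1ΔM, against 3.12, 1.02 and 1.38 CPM after LPS (log2 fold change 2.43 ± 0.49 SE, edgeR adjusted p = 0.000809). It had 11.6, 9.24 and 8.81 CPM in Zeb1WT LPS + LPS libraries, against 3.50, 1.17 and 0.970 CPM in Zeb1WT LPS libraries (log2 fold change 2.38 ± 0.48 SE, edgeR adjusted p = 0.000746), so the groups were separate in both genotypes.

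Msmo1 and Nsdhl, the oxygenase and the dehydrogenase of the same complex, also rose. Msmo1 had 31.4, 29.4 and 29.1 CPM after LPS + LPS in Zeb1ΔM, against 21.2, 14.2 and 17.1 CPM after LPS (log2 fold change 0.78 ± 0.21 SE, edgeR adjusted p = 0.00809). In Zeb1WT Msmo1 had 40.2, 42.2 and 46.00 CPM after LPS + LPS, against 15.7, 14.2 and 11.5 CPM after LPS (log2 fold change 1.63 ± 0.21 SE, edgeR adjusted p = 9.52e-06). Nsdhl rose by 0.99 ± 0.34 in Zeb1ΔM and 1.03 ± 0.34 in Zeb1WT on the log2 scale. Dhcr7, the reductase of the last step toward cholesterol in a branch of the pathway, was nearly silent after LPS, with 9, 27 and 5 counts in the Zeb1ΔM libraries and 0, 19 and 0 counts in the Zeb1WT libraries. After LPS + LPS it reached 130, 78 and 58 counts in Zeb1ΔM and 97, 65 and 83 counts in Zeb1WT, and its log2 fold changes of 2.16 (edgeR adjusted p = 0.0488) and 3.13 (edgeR adjusted p = 0.00896) are set by those few reads. The sterol isomerase Ebp was called in Zeb1WT (log2 fold change 0.56 ± 0.20 SE, edgeR adjusted p = 0.0322), where the 2 groups overlapped, and stood at 0.24 ± 0.20 in Zeb1ΔM. The demethylase Cyp51, the desaturase Sc5d and the reductase Tm7sf2 were not called in either genotype, with log2 fold changes between -0.30 (Sc5d, Zeb1ΔM) and 1.01 (Tm7sf2, Zeb1ΔM).

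None of the 4 genes of the SREBP machinery rose. Srebf2, which encodes SREBP2, and Srebf1, which encodes the SREBP forms that favour fatty acid genes, were not called, with log2 fold changes of 0.36 ± 0.33 and 0.59 ± 0.29 in Zeb1ΔM and 0.60 ± 0.33 and 0.29 ± 0.29 in Zeb1WT. Insig1, which retains SCAP in the endoplasmic reticulum and is itself an SREBP target, had 24.6, 19.2 and 17.6 CPM after LPS + LPS in Zeb1ΔM, against 45.5, 47.4 and 54.4 CPM after LPS (log2 fold change -1.26 ± 0.24 SE, edgeR adjusted p = 0.000583). In Zeb1WT Insig1 had 41.5, 17.6 and 22.9 CPM after LPS + LPS, against 67.5, 73.4 and 53.7 CPM after LPS (log2 fold change -1.25 ± 0.24 SE, edgeR adjusted p = 0.000509). It was thus lower in every LPS + LPS library of either genotype, the reverse of the direction of 12 enzymes. Scap, the escort of SREBP, fell in Zeb1WT (log2 fold change -0.99 ± 0.34 SE, edgeR adjusted p = 0.0266) and stood at -0.77 ± 0.33 in Zeb1ΔM (edgeR adjusted p = 0.0868).

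Among the remaining synthesis genes the fatty acid desaturase Scd2 moved furthest. It had 0, 5 and 0 counts in the Zeb1ΔM LPS libraries and 7, 7 and 0 counts in the Zeb1WT LPS libraries. After LPS + LPS it reached 31.3, 30.7 and 22.1 CPM in Zeb1ΔM (log2 fold change 8.14 ± 1.00 SE, edgeR adjusted p = 6.04e-06) and 46.6, 20.9 and 15.8 CPM in Zeb1WT (log2 fold change 6.85 ± 0.89 SE, edgeR adjusted p = 8.64e-06). With 5 and 14 counts in all after LPS, these fitted values have wide intervals, 6.18 to 10.10 in Zeb1ΔM and 5.11 to 8.59 in Zeb1WT at 95%. Fasn, fatty acid synthase, was not called, with log2 fold changes of 0.11 ± 0.54 in Zeb1ΔM and -0.89 ± 0.54 in Zeb1WT. Stard4, a soluble sterol carrier, was called in Zeb1WT (log2 fold change 1.20 ± 0.46 SE, edgeR adjusted p = 0.0476) and stood at 1.15 ± 0.46 in Zeb1ΔM. Acat2, the thiolase that joins acetyl units, fell in Zeb1ΔM (log2 fold change -0.75 ± 0.28 SE, edgeR adjusted p = 0.0473) and stood at 0.22 ± 0.28 in Zeb1WT.

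All 5 LXR and export genes changed in both genotypes, and they split in the same way in each: Nr1h3 and Abcg1 rose, and Abca1, Mylip and Apoe fell. Nr1h3 had 70.2, 50.3 and 65.5 CPM after LPS + LPS in Zeb1ΔM, against 5.65, 9.48 and 7.75 CPM after LPS (log2 fold change 3.02 ± 0.32 SE, edgeR adjusted p = 1.09e-06). In Zeb1WT Nr1h3 had 57.6, 67.6 and 75.4 CPM after LPS + LPS, against 3.18, 2.79 and 7.09 CPM after LPS (log2 fold change 3.95 ± 0.33 SE, edgeR adjusted p = 5.71e-08). The receptor transcript was therefore 8.09-fold higher in Zeb1ΔM and 15.5-fold higher in Zeb1WT, with no overlap of libraries.

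Abca1, which loads cholesterol onto lipid-poor apolipoprotein, had 71.8, 90.6 and 73.8 CPM after LPS + LPS in Zeb1ΔM, against 126, 163 and 146 CPM after LPS (log2 fold change -0.88 ± 0.19 SE, edgeR adjusted p = 0.00147). In Zeb1WT Abca1 had 61.3, 60.5 and 52.8 CPM after LPS + LPS, against 181, 188 and 189.8 CPM after LPS (log2 fold change -1.68 ± 0.19 SE, edgeR adjusted p = 2.05e-06). All LPS + LPS libraries lay under all LPS libraries of their genotype. Abcg1, which delivers cholesterol to mature lipoprotein particles, went the other way, with 40.2, 29.8 and 78.7 CPM after LPS + LPS in Zeb1ΔM, against 20.6, 13.5 and 16.3 CPM after LPS (log2 fold change 1.56 ± 0.48 SE, edgeR adjusted p = 0.0180). In Zeb1WT Abcg1 had 29.2, 70.7 and 138 CPM after LPS + LPS, against 13.2, 16.2 and 40.1 CPM after LPS (log2 fold change 1.78 ± 0.48 SE, edgeR adjusted p = 0.00710), where 1 LPS library exceeded 1 LPS + LPS library. The call for Abcg1 was lost when LPS + LPS replicate 3, its highest library, was left out, at an adjusted p of 0.123 in Zeb1ΔM and 0.0706 in Zeb1WT.

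Apoe, the apolipoprotein that macrophages secrete with exported cholesterol, took 2.54% to 3.97% of all counts in the 6 LPS libraries and 0.517% to 1.13% in the 6 LPS + LPS libraries. It had 6798, 7320.4 and 7486 CPM after LPS + LPS in Zeb1ΔM, against 41121, 29086 and 40536 CPM after LPS (log2 fold change -2.36 ± 0.30 SE, edgeR adjusted p = 8.89e-06). In Zeb1WT Apoe had 4669, 3306 and 6783 CPM after LPS + LPS, against 25579, 36464 and 31058 CPM after LPS (log2 fold change -2.66 ± 0.30 SE, edgeR adjusted p = 2.01e-06). The drop was 5.13-fold in Zeb1ΔM and 6.31-fold in Zeb1WT. Mylip, a ubiquitin ligase that marks the LDL receptor for degradation, had 8.79, 7.32 and 8.10 CPM after LPS + LPS in Zeb1ΔM, against 26.8, 22.99 and 24.4 CPM after LPS (log2 fold change -1.61 ± 0.26 SE, edgeR adjusted p = 0.000102). In Zeb1WT Mylip had 5.83, 11.8 and 10.2 CPM, against 22.8, 33.4 and 28.4 CPM after LPS (log2 fold change -1.60 ± 0.26 SE, edgeR adjusted p = 8.24e-05), and the groups were separate in both genotypes.

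The genes of storage and of the lysosome were divided as well. Soat1, which esterifies cholesterol for lipid droplets, had 128, 112 and 181 CPM after LPS + LPS in Zeb1ΔM, against 59.8, 40.98 and 58.1 CPM after LPS (log2 fold change 1.41 ± 0.27 SE, edgeR adjusted p = 0.000553). In Zeb1WT Soat1 had 101, 121 and 238 CPM after LPS + LPS, against 60.1, 50.2 and 65.3 CPM after LPS (log2 fold change 1.39 ± 0.27 SE, edgeR adjusted p = 0.000524). All LPS + LPS libraries were above the LPS libraries of their genotype. Npc1 and Npc2, which hand cholesterol over to each other on its way out of the lysosome, moved in opposite directions. Npc1 rose in Zeb1ΔM (log2 fold change 1.46 ± 0.29 SE, edgeR adjusted p = 0.000776) and in Zeb1WT (log2 fold change 0.89 ± 0.29 SE, edgeR adjusted p = 0.0205). Npc2 fell to 397, 380.4 and 442 CPM after LPS + LPS in Zeb1ΔM, against 1096, 689 and 949 CPM after LPS (log2 fold change -1.17 ± 0.24 SE, edgeR adjusted p = 0.000943). In Zeb1WT Npc2 fell to 347, 316 and 386 CPM, against 1035, 1149.6 and 1012 CPM after LPS (log2 fold change -1.61 ± 0.24 SE, edgeR adjusted p = 3.93e-05).

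**Figure D2:**
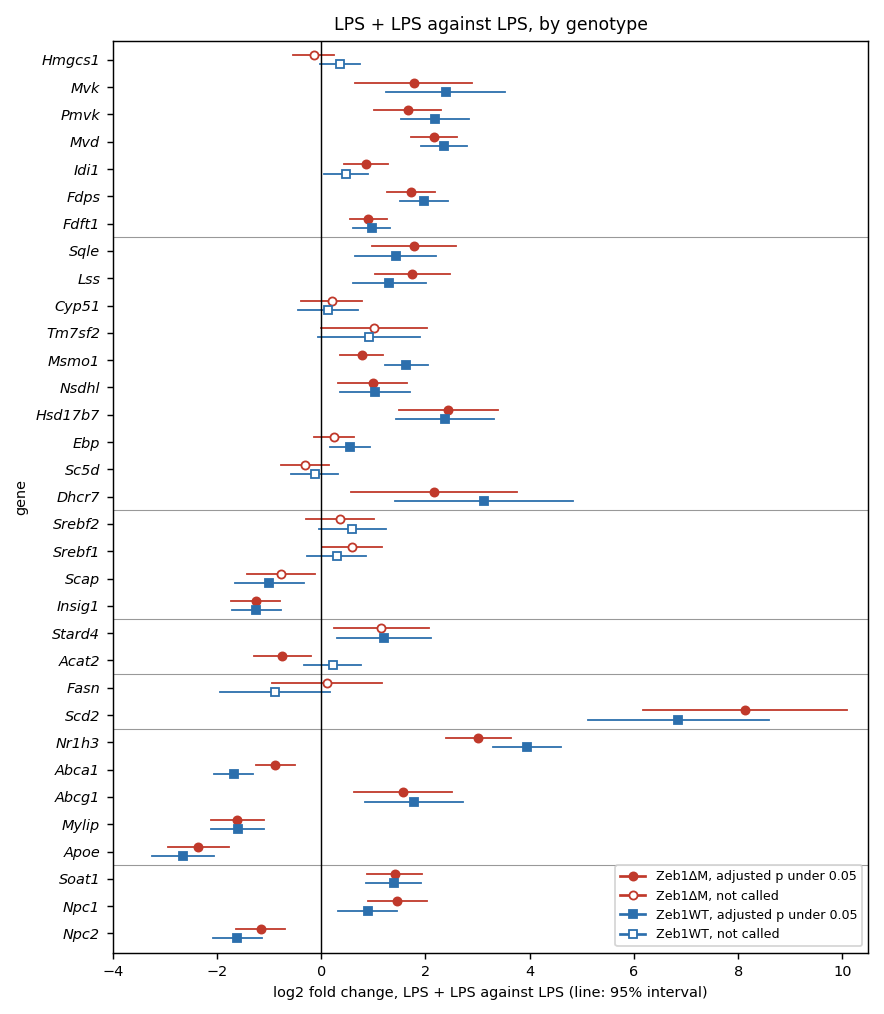
Log2 fold change of LPS + LPS against LPS for each gene (x axis) in Zeb1ΔM (red circles) and Zeb1WT (blue squares), with 95% intervals as lines and filled symbols where the adjusted p is under 0.05. Of the 17 enzymes at the top, 12 lie to the right of 0 with filled symbols in each genotype, while Insig1, Abca1, Mylip, Apoe and Npc2 lie to the left.

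Leaving out each library in turn kept 18 of the 23 calls in Zeb1ΔM and 16 of the 24 calls in Zeb1WT at every omission. The highest edgeR adjusted p of the calls lost was 0.0750 without LPS + LPS replicate 1 for Mvk, 0.0898 without LPS + LPS replicate 1 for Nsdhl, 0.161 without LPS replicate 3 for Dhcr7, 0.217 without LPS replicate 1 for Acat2 and 0.123 without LPS + LPS replicate 3 for Abcg1. In Zeb1WT it was 0.0506 without LPS replicate 1 for Sqle, 0.0506 without LPS + LPS replicate 3 for Lss, 0.110 without LPS replicate 3 for Nsdhl and 0.179 without LPS replicate 1 for Ebp. It was 0.120 without LPS replicate 3 for Scap, 0.186 without LPS replicate 1 for Stard4, 0.0706 without LPS + LPS replicate 3 for Abcg1 and 0.0753 without LPS + LPS replicate 1 for Npc1, and no called direction turned. Without Zeb1WT LPS + LPS replicate 1, the calls in Zeb1WT numbered 14 higher and 7 lower.

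Markers of cell types moved with the same comparison. Summed levels here and below run over all listed markers, including those not tested. The lists hold 13 markers of neutrophils, 10 of B cells and 7 of dendritic cells. Of 11 markers of large peritoneal macrophages 8 fell and 1 rose in Zeb1ΔM, and 9 fell in Zeb1WT, with none at 0. Their summed level was 9164 to 14922 CPM after LPS + LPS in Zeb1ΔM, against 33747 to 37078 CPM after LPS. In Zeb1WT the sum was 3036 to 5510 CPM after LPS + LPS, against 20166 to 26644 CPM after LPS. Of 11 neutrophil markers tested 7 rose in Zeb1ΔM and 6 in Zeb1WT, and Mpo was at 0 in all 6 LPS libraries. Their summed level was 495 to 1163 CPM after LPS + LPS in Zeb1ΔM, against 86.95 to 146 CPM after LPS, and 719 to 3860 CPM in Zeb1WT, against 308 to 611 CPM. Of 7 general macrophage markers 3 rose and 2 fell in Zeb1ΔM, and 2 fell in Zeb1WT. Their summed level was 8443 to 10186 CPM after LPS + LPS in Zeb1ΔM, against 11380 to 20396 CPM after LPS, and 6763 to 10140 CPM in Zeb1WT, against 15659 to 20151 CPM. Of 5 dendritic cell markers tested 2 fell in Zeb1ΔM and 3 in Zeb1WT, with sums of 6.24 to 9.94 CPM after LPS + LPS in Zeb1ΔM, against 284 to 1048 CPM after LPS, and 7.44 to 19.4 CPM in Zeb1WT, against 471 to 825 CPM. Of 8 B cell markers tested 1 fell in Zeb1ΔM and 6 in Zeb1WT, and of 9 markers of monocytes and small peritoneal macrophages 4 rose and 4 fell in each genotype. The part of these shifts in the sterol gene results was not tested.

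Some reads of these genes could belong to neighbours, because the sources used here do not say whether counting used the strand. The exons of Npc1 share 511 bases with Rmc1 on the opposite strand, which itself rose after LPS + LPS by a log2 fold change of 0.91 in Zeb1ΔM (edgeR adjusted p = 0.000880) and 1.00 in Zeb1WT (edgeR adjusted p = 0.000316). Those of Fdft1 share 774 bases with the abundant Ctsb on the opposite strand, whose log2 fold changes after LPS + LPS were 0.15 in Zeb1ΔM and -0.15 in Zeb1WT and were not called. After Metformin + LPS Ctsb stood at 0.01 in Zeb1ΔM and rose in Zeb1WT (log2 fold change 0.79 ± 0.25 SE, edgeR adjusted p = 0.0273). Between genotypes it was lower in Zeb1ΔM after Metformin + LPS (log2 difference -1.04 ± 0.25 SE, edgeR adjusted p = 0.0189). All libraries together held 1745333 counts of Ctsb and 7592 of Fdft1. Tm7sf2 shares 532 bases with Vps51 on the same strand, and Acat2 has a close paralog, Acat3, so the counts of these genes are uncertain to that extent. On the opposite strand Hmgcs1 shares 557 bases with Gm48342, Cyp51 shares 166 with Akap9, and Srebf1 shares 109 with Rai1.

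**Figure D3:**
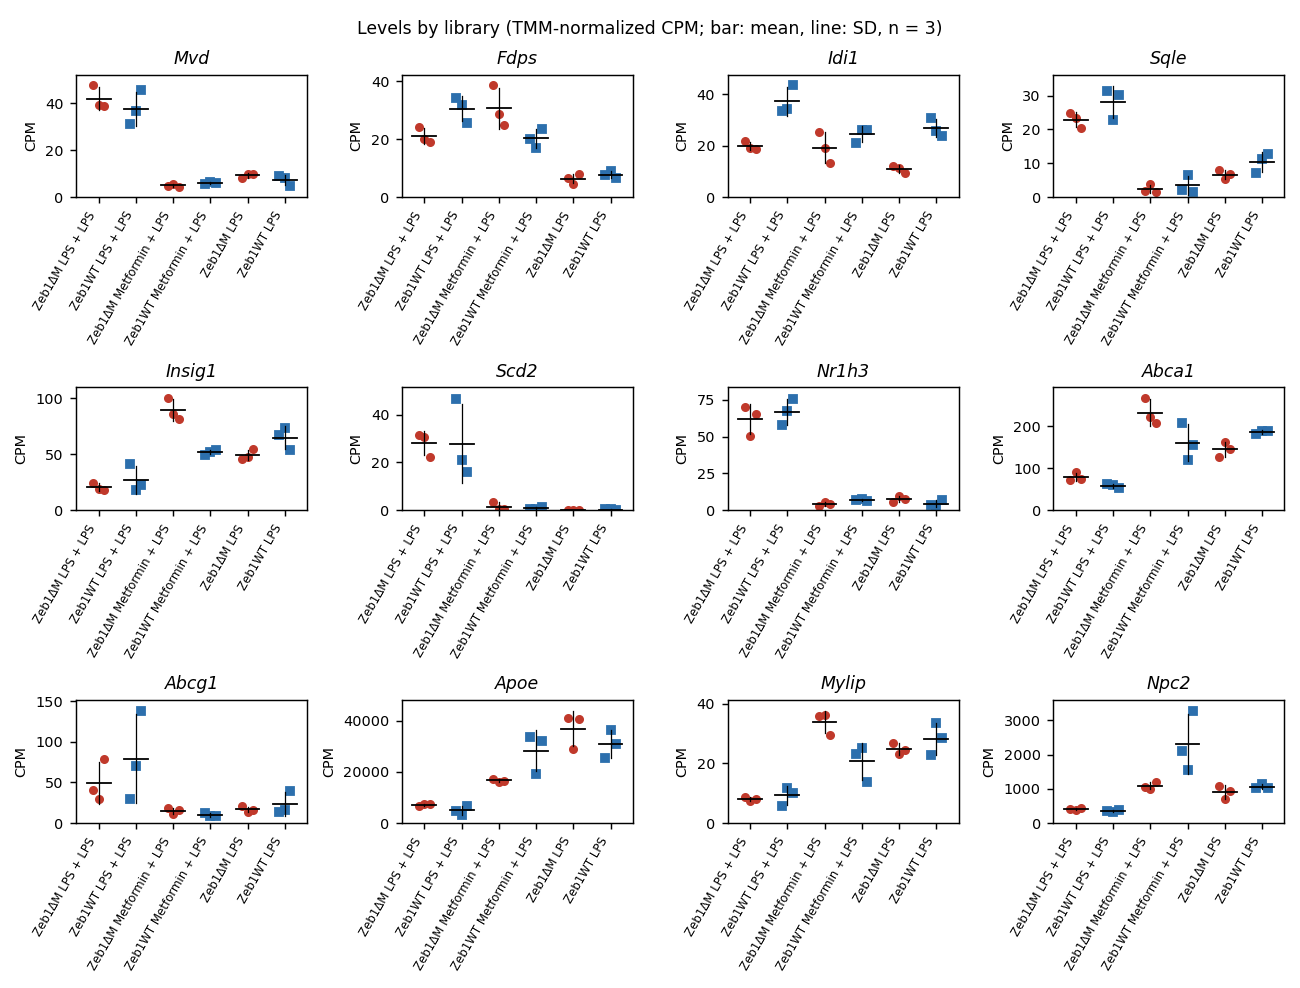
Level of 12 of the genes in each library (y axis, TMM-normalized CPM from 0, linear), with Zeb1ΔM libraries as red circles, Zeb1WT libraries as blue squares, a bar for the mean and a line for the SD of 3 libraries. Mvd, Sqle, Scd2 and Nr1h3 are highest in the LPS + LPS groups, Fdps is raised in both the LPS + LPS and the Metformin + LPS groups, and Apoe is highest in the Zeb1ΔM LPS and Zeb1WT LPS groups.

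Metformin + LPS against LPS addresses how metformin given ahead of LPS changes inflamed macrophages. This comparison uses the same LPS libraries as the comparison before it, so the values of both are given only side by side. After Metformin + LPS 9 of the 33 genes rose and 6 fell in Zeb1ΔM, and 4 rose and 3 fell in Zeb1WT. Among all genes tested, 12.6% rose and 13.6% fell in Zeb1ΔM, and 13% rose and 12.3% fell in Zeb1WT. The median log2 fold change of the 33 genes was 0.09 in Zeb1ΔM and -0.11 in Zeb1WT, beside -0.04 and -0.03 over all genes. Calls among the enzymes lay in both directions: 5 rose and 2 fell of 17 in Zeb1ΔM, and 3 rose and 2 fell in Zeb1WT. Fdps and Ebp rose and Sqle and Scap fell in both genotypes, which is 26.7% of the members called in Zeb1ΔM and 57.1% of those called in Zeb1WT, where over all genes the same shares were 52.1% and 54.0%.

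Fdps had the smallest adjusted p of the increases in either genotype. It had 38.6, 28.6 and 24.8 CPM after Metformin + LPS in Zeb1ΔM, against 6.61, 4.69 and 7.95 CPM after LPS (log2 fold change 2.26 ± 0.24 SE, edgeR adjusted p = 1.76e-05). In Zeb1WT Fdps had 20.2, 17.01 and 23.7 CPM after Metformin + LPS, against 7.84, 9.02 and 6.49 CPM after LPS (log2 fold change 1.38 ± 0.23 SE, edgeR adjusted p = 0.000420). The rise was 4.78-fold in Zeb1ΔM and 2.60-fold in Zeb1WT, without overlap in either. Sqle, which rose after LPS + LPS, fell here to 1.88, 3.90 and 1.56 CPM in Zeb1ΔM, against 7.95, 5.25 and 6.83 CPM after LPS (log2 fold change -1.45 ± 0.42 SE, edgeR adjusted p = 0.0180). In Zeb1WT Sqle fell to 2.09, 6.66 and 1.70 CPM, against 7.26, 11.3 and 12.9 CPM after LPS (log2 fold change -1.53 ± 0.42 SE, edgeR adjusted p = 0.0117). Both groups of 3 lay under their LPS libraries, and in each 1 library was well above its 2 fellows.

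The sterol isomerase Ebp had 43.7, 40.1 and 41.8 CPM after Metformin + LPS in Zeb1ΔM, against 26.4, 18.9 and 26.1 CPM after LPS (log2 fold change 0.82 ± 0.20 SE, edgeR adjusted p = 0.00583). In Zeb1WT Ebp had 36.8, 36.9 and 34.1 CPM, against 16.1, 28.9 and 21.4 CPM (log2 fold change 0.70 ± 0.20 SE, edgeR adjusted p = 0.0144). Every Metformin + LPS library was above every LPS library. Scap had 11.4, 5.01 and 3.64 CPM after Metformin + LPS in Zeb1ΔM, against 15.7, 16.8 and 17.1 CPM after LPS (log2 fold change -1.31 ± 0.34 SE, edgeR adjusted p = 0.00940). In Zeb1WT Scap had 8.47, 6.52 and 8.13 CPM, against 12.2, 12.9 and 19.3 CPM (log2 fold change -0.95 ± 0.34 SE, edgeR adjusted p = 0.0489). Here every Metformin + LPS library was under every LPS library. In Zeb1WT Dhcr7 rose to 27, 84 and 26 counts, against 0, 19 and 0 counts after LPS (log2 fold change 3.11 ± 0.88 SE, edgeR adjusted p = 0.0150), and Sc5d fell (log2 fold change -0.67 ± 0.24 SE, edgeR adjusted p = 0.0472). Neither gene was called in Zeb1ΔM, but both had the same direction there, without overlap of libraries. Dhcr7 had 61, 48 and 44 counts in Zeb1ΔM, against 9, 27 and 5 counts after LPS (log2 fold change 1.73, edgeR adjusted p = 0.126). The log2 fold change of Sc5d in Zeb1ΔM was -0.54 (edgeR adjusted p = 0.105). Npc2 rose in Zeb1WT to 2102, 1538 and 3270.3 CPM, against 1035, 1149.6 and 1012 CPM after LPS (log2 fold change 1.11 ± 0.24 SE, edgeR adjusted p = 0.00230). It took 22098, 33273 and 42262 of 18575570, 30570439 and 29028073 counts after Metformin + LPS in Zeb1WT. After LPS it took 23082, 22675 and 16699 of 22438521, 22774325 and 17296835 counts. As shares of all counts, without TMM scaling, these groups lay closer together, so the size of the rise depended on the scaling. In Zeb1ΔM Npc2 had 1067, 999 and 1202 CPM, against 1096, 689 and 949 CPM (log2 fold change 0.26 ± 0.23 SE, edgeR adjusted p = 0.442), where the groups overlapped.

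A further 11 genes were called in Zeb1ΔM only. Apoe fell to 17341, 16204 and 16403 CPM after Metformin + LPS in Zeb1ΔM, against 41121, 29086 and 40536 CPM after LPS (log2 fold change -1.15 ± 0.29 SE, edgeR adjusted p = 0.00777). In Zeb1WT Apoe had 33519, 19157 and 32182 CPM, against 25579, 36464 and 31058 CPM (log2 fold change -0.13 ± 0.29 SE, edgeR adjusted p = 0.777). On this scale the Zeb1ΔM groups were separate, whereas those of Zeb1WT overlapped. As a share of all counts, without TMM scaling, Apoe was lower in both genotypes. It took 1.90%, 1.36% and 1.43% after Metformin + LPS in Zeb1WT, against 2.54%, 3.16% and 2.96% after LPS. In Zeb1ΔM it took 1.46%, 1.37% and 1.44%, against 3.94%, 3.10% and 3.97%. The Zeb1WT result for Apoe thus depended on the scaling. Abca1 rose to 268, 223 and 207 CPM in Zeb1ΔM, against 126, 163 and 146 CPM after LPS (log2 fold change 0.68 ± 0.19 SE, edgeR adjusted p = 0.0130). In Zeb1WT Abca1 had 207, 119.7 and 156 CPM, against 181, 188 and 189.8 CPM (log2 fold change -0.21 ± 0.19 SE, edgeR adjusted p = 0.445). On this scale too only the Zeb1ΔM groups were separate. In Zeb1WT Abca1 took 2179, 2588 and 2022 of 18575570, 30570439 and 29028073 counts after Metformin + LPS. After LPS it took 4036, 3714 and 3132 of 22438521, 22774325 and 17296835 counts in Zeb1WT. As a share of all counts, without TMM scaling, Abca1 was thus lower in Zeb1WT without overlap. The Zeb1WT result for Abca1 depended on the scaling as well. Insig1 rose to 100.2, 85.8 and 81.8 CPM after Metformin + LPS in Zeb1ΔM, against 45.5, 47.4 and 54.4 CPM after LPS (log2 fold change 0.86 ± 0.24 SE, edgeR adjusted p = 0.0132). In Zeb1WT Insig1 had 49.6, 52.4 and 53.9 CPM, against 67.5, 73.4 and 53.7 CPM (log2 fold change -0.32 ± 0.24 SE, edgeR adjusted p = 0.348). Mvd fell to 5.02, 5.58 and 4.58 CPM in Zeb1ΔM, against 8.17, 9.99 and 9.99 CPM after LPS (log2 fold change -0.89 ± 0.22 SE, edgeR adjusted p = 0.00733), so that a gene raised more than 4-fold after LPS + LPS was lowered here. In Zeb1WT the log2 fold change of Mvd was -0.28 (edgeR adjusted p = 0.394).

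Idi1 had 25.3, 19.1 and 13.4 CPM after Metformin + LPS in Zeb1ΔM, against 12.2, 11.5 and 9.27 CPM after LPS (log2 fold change 0.81 ± 0.22 SE, edgeR adjusted p = 0.0109). In Zeb1WT Idi1 had 20.9, 26.1 and 26.2 CPM, against 30.7, 25.7 and 23.9 CPM (log2 fold change -0.13 ± 0.21 SE, edgeR adjusted p = 0.701). The Zeb1ΔM groups were separate and the Zeb1WT groups overlapped. Fdft1 and Tm7sf2 rose in Zeb1ΔM, by 0.56 ± 0.18 and 1.97 ± 0.52 on the log2 scale, the second from 39 counts in the 3 LPS libraries. In Zeb1WT they had the same direction, Fdft1 at 0.50 (edgeR adjusted p = 0.0524) and Tm7sf2 at 0.89 (edgeR adjusted p = 0.211). Fdft1 was called in Zeb1WT in 4 of 11 alternative fits, among them DESeq2. Acat2 fell in Zeb1ΔM by a log2 fold change of -0.92 ± 0.28, with its paralog Acat3 at -0.86. In Zeb1WT Acat2 had 20.7, 26.7 and 22.1 CPM after Metformin + LPS, against 23.6, 29.6 and 22.0 CPM after LPS. Srebf2 was called higher (log2 fold change 1.14 ± 0.33 SE, edgeR adjusted p = 0.0181) and Nr1h3 lower (log2 fold change -0.88 ± 0.31 SE, edgeR adjusted p = 0.0456) in Zeb1ΔM although the libraries overlapped in both. In Zeb1WT Srebf2 stood at 0.68 (edgeR adjusted p = 0.146), the same direction, and was called in 2 alternative fits, whereas Nr1h3 stood at 0.72. Scd2 was called higher with 70, 7 and 12 counts after Metformin + LPS in Zeb1ΔM, against 0, 5 and 0 counts after LPS (log2 fold change 3.91 ± 1.07 SE, edgeR adjusted p = 0.0125), a call lost without Metformin + LPS replicate 1, its highest library. In Zeb1WT Scd2 had 3, 15 and 16 counts after Metformin + LPS, against 7, 7 and 0 counts after LPS. The other 15 genes were not called in either genotype, with log2 fold changes between -1.23 (Abcg1, Zeb1WT) and 1.29 (Mvk, Zeb1WT), among them Hmgcs1, Cyp51, Srebf1, Fasn, Mylip and Soat1.

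**Figure D4:**
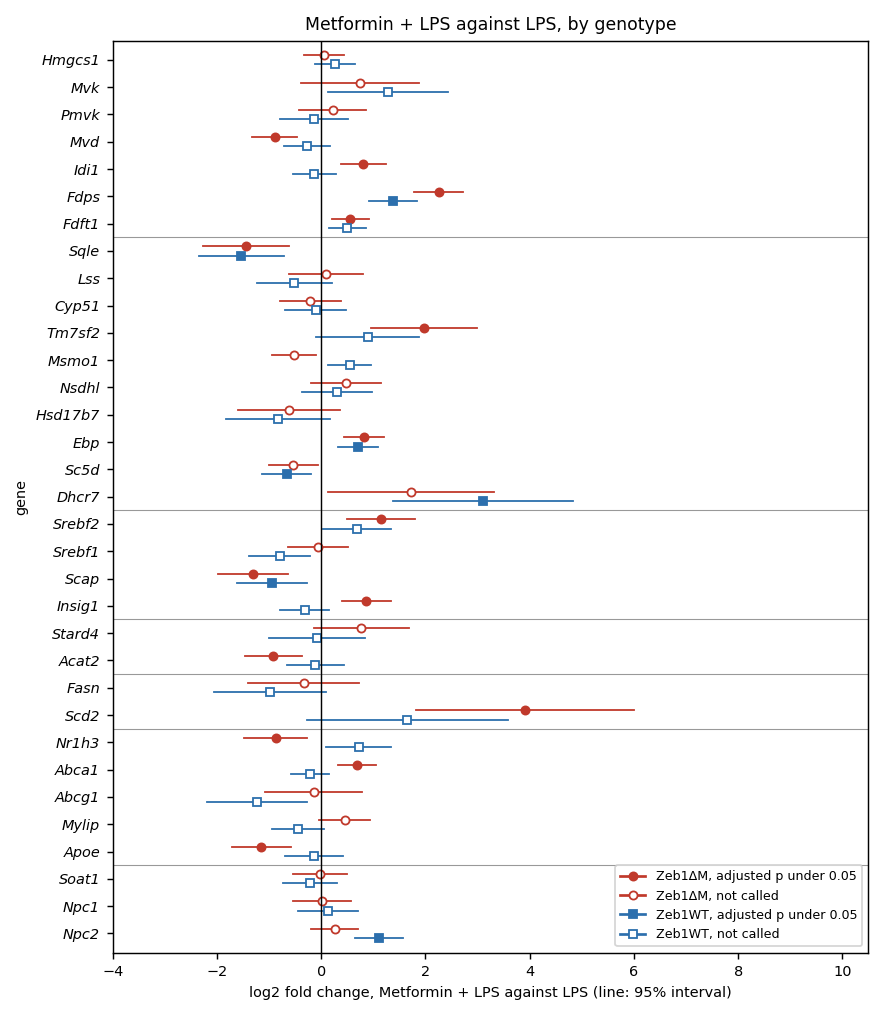
Log2 fold change of Metformin + LPS against LPS for each gene (x axis) in Zeb1ΔM (red circles) and Zeb1WT (blue squares), with 95% intervals as lines and filled symbols where the adjusted p is under 0.05. Filled symbols are scattered on both sides of 0, 9 higher and 6 lower in Zeb1ΔM and 4 higher and 3 lower in Zeb1WT, with Fdps at 2.26 and 1.38.

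Leaving out each library in turn kept 4 of the 15 calls in Zeb1ΔM (Mvd, Fdps, Ebp and Apoe) and 3 of the 7 calls in Zeb1WT (Fdps, Dhcr7 and Npc2) at every omission. In Zeb1ΔM the calls numbered 5 without Metformin + LPS replicate 1 and 7 without LPS replicate 3. Without Metformin + LPS replicate 3, the library that stood apart, 8 genes were higher and 4 lower. The highest edgeR adjusted p of the calls lost in Zeb1ΔM was 0.0753 without Metformin + LPS replicate 1 for Idi1, 0.0992 without Metformin + LPS replicate 3 for Fdft1, 0.0832 without Metformin + LPS replicate 1 for Sqle and 0.0642 without Metformin + LPS replicate 1 for Tm7sf2. It was 0.0964 without Metformin + LPS replicate 1 for Srebf2, 0.0585 without Metformin + LPS replicate 2 for Scap, 0.0523 without Metformin + LPS replicate 1 for Insig1 and 0.111 without LPS replicate 1 for Acat2. For the others it was 0.143 without Metformin + LPS replicate 1 for Scd2, 0.201 without Metformin + LPS replicate 1 for Nr1h3 and 0.0617 without LPS replicate 1 for Abca1. In Zeb1WT it was 0.0643 without Metformin + LPS replicate 3 for Sqle, 0.0880 without LPS replicate 1 for Ebp, 0.231 without Metformin + LPS replicate 2 for Sc5d and 0.187 without LPS replicate 3 for Scap.

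Marker levels moved with metformin too. Of 11 neutrophil markers 9 fell in Zeb1ΔM and 7 in Zeb1WT. Their summed level was 11.5 to 16.01 CPM after Metformin + LPS in Zeb1ΔM, against 86.95 to 146 CPM after LPS, and 71.3 to 148 CPM in Zeb1WT, against 308 to 611 CPM. Ly6g, Mpo, Elane and Ngp were at 0 in all 3 Zeb1ΔM Metformin + LPS libraries, and Mpo and Elane in all 3 Zeb1WT ones. Of 7 general macrophage markers 4 rose in Zeb1ΔM and 6 in Zeb1WT. Their summed level was 16295 to 18018 CPM after Metformin + LPS in Zeb1ΔM, against 11380 to 20396 CPM after LPS, and 18962 to 31903 CPM in Zeb1WT, against 15659 to 20151 CPM. Of 9 markers of monocytes and small peritoneal macrophages 2 rose and 1 fell in Zeb1ΔM, where their sum was 387 to 618 CPM after Metformin + LPS, against 756 to 1063 CPM after LPS. In Zeb1WT 6 of them rose, with a sum of 1571 to 3107 CPM after Metformin + LPS, against 1034 to 1382 CPM after LPS. Of 8 B cell markers 5 fell in each genotype, with sums of 8.52 to 11.7 CPM in Zeb1ΔM, against 26.3 to 40.3 CPM after LPS, and 29.8 to 58.1 CPM in Zeb1WT, against 131 to 196 CPM. Of 5 dendritic cell markers 2 fell in Zeb1ΔM and 3 in Zeb1WT. Mitochondrial genes took 1.19% to 1.91% of counts after Metformin + LPS in Zeb1ΔM, against 0.529% to 0.659% after LPS, and 2.05% to 2.79% in Zeb1WT, against 0.672% to 1.12%. The part of these shifts in the results for the 33 genes was not tested.

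Zeb1ΔM against Zeb1WT within a treatment asked what the loss of ZEB1 does. Few of the sterol and lipid genes differed: 1 of 33 was called after LPS, 0 after LPS + LPS and 2 after Metformin + LPS, where the shares of all genes called were 1.15%, 0.677% and 5.87%. These shares are 154, 91 and 789 genes, and they depended on single libraries: 55 genes were called after LPS without Zeb1ΔM LPS replicate 1 and 232 without Zeb1WT LPS replicate 3. After LPS + LPS 29 were called without Zeb1ΔM LPS + LPS replicate 2 and 397 without Zeb1WT LPS + LPS replicate 1, and that omission also added a call for Idi1. After Metformin + LPS 321 were called without Zeb1ΔM Metformin + LPS replicate 1 and 965 without Zeb1WT Metformin + LPS replicate 2. After LPS + LPS 6 of the 33 had an unadjusted p under 0.05 in edgeR, beside 1575 of all 13443 genes. DESeq2 called 2 of these 6. Median log2 differences of the 33 genes were -0.15, -0.18 and 0.06 in these treatments, beside 0.01, -0.02 and 0.03 over all genes. A p above the threshold does not show equal levels, and after LPS + LPS Zeb1 RNA itself was not called between genotypes.

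The single call after LPS was Idi1. It had 12.2, 11.5 and 9.27 CPM in Zeb1ΔM LPS libraries, against 30.7, 25.7 and 23.9 CPM in Zeb1WT LPS libraries (log2 difference -1.28 ± 0.22 SE, edgeR adjusted p = 0.00595), and the call held at every omission of a library. After LPS + LPS Idi1 had 21.7, 19.3 and 18.6 CPM in Zeb1ΔM, against 33.6, 34.4 and 43.6 CPM in Zeb1WT, again lower in all 3 libraries, but it missed the threshold (log2 difference -0.90 ± 0.21 SE, edgeR adjusted p = 0.0620). After Metformin + LPS it had 25.3, 19.1 and 13.4 CPM in Zeb1ΔM, against 20.9, 26.1 and 26.2 CPM in Zeb1WT, with overlap (log2 difference -0.34 ± 0.21 SE, edgeR adjusted p = 0.391). Averaged over the 3 treatments, the contrast called 10.3% of all genes and 2 of the 33: Idi1 (log2 difference -0.84 ± 0.12 SE, edgeR adjusted p = 0.000385) and Hmgcs1 (log2 difference -0.40 ± 0.11 SE, edgeR adjusted p = 0.0304), both lower in Zeb1ΔM. The call for Hmgcs1 was lost in 9 of the 18 omissions of a library, with a highest adjusted p of 0.0713 without Zeb1ΔM LPS + LPS replicate 3.

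After Metformin + LPS Npc2 had 1067, 999 and 1202 CPM in Zeb1ΔM, against 2102, 1538 and 3270.3 CPM in Zeb1WT (log2 difference -1.08 ± 0.24 SE, edgeR adjusted p = 0.0107). It took 21047, 18967 and 25453 of 23373893, 22517171 and 24133309 counts in Zeb1ΔM. In Zeb1WT it took 22098, 33273 and 42262 of 18575570, 30570439 and 29028073 counts. As shares of all counts, without TMM scaling, the difference between genotypes was smaller. Msmo1 had 11.3, 13.9 and 11.2 CPM in Zeb1ΔM, against 13.8, 22.6 and 23.9 CPM in Zeb1WT (log2 difference -0.73 ± 0.21 SE, edgeR adjusted p = 0.0492), where 1 Zeb1ΔM library exceeded 1 Zeb1WT library. Neither call held at every omission, the highest adjusted p being 0.0577 without Zeb1ΔM Metformin + LPS replicate 2 for Npc2 and 0.185 without Zeb1WT Metformin + LPS replicate 3 for Msmo1. Insig1 was higher in Zeb1ΔM, with 100.2, 85.8 and 81.8 CPM against 49.6, 52.4 and 53.9 CPM in Zeb1WT, without overlap. It missed the threshold (log2 difference 0.78, edgeR adjusted p = 0.0614). Insig1 was called by DESeq2, without the count filter and in the fit of only the groups compared. After LPS + LPS 14 of the 17 enzymes had a negative difference and 3 a positive one, with a median of -0.30, but none was called. Marker levels differed between genotypes as well. After LPS the summed level of the B cell markers was 26.3 to 40.3 CPM in Zeb1ΔM, against 131 to 196 CPM in Zeb1WT (3 of 8 tested lower, Vpreb3 at 0 in both), and 4 of 11 neutrophil markers were lower in Zeb1ΔM. After LPS + LPS 7 of 11 markers of large peritoneal macrophages were higher in Zeb1ΔM, and after Metformin + LPS 6 of 9 markers of monocytes and small peritoneal macrophages were lower. The sums of the last were 387 to 618 CPM in Zeb1ΔM, against 1571 to 3107 CPM in Zeb1WT. In the same treatment 7 of 11 neutrophil, 5 of 8 B cell and 2 of 5 eosinophil markers were also lower in Zeb1ΔM. The neutrophil sums were 11.5 to 16.01 CPM in Zeb1ΔM, against 71.3 to 148 CPM in Zeb1WT. Of 11 markers of large peritoneal macrophages 1 was higher there. The part of these marker shifts in the genotype differences was not tested.

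Whether a treatment acted differently in the 2 genotypes was tested as an interaction. For LPS + LPS it called 0 of the 33 genes and 0% of all genes in edgeR, and 0 of the 33 by DESeq2. In edgeR 4 of the 33 had an unadjusted p under 0.05, beside 939 of all 13443 genes. For Metformin + LPS edgeR called 0 of the 33 genes and 0.156% of all genes (21 genes). An unadjusted p under 0.05 was seen for 9 of the 33, beside 1832 of all 13443 genes. DESeq2 called 4 of the 33 and 300 genes in all. The metformin effect on Nr1h3 was -0.88 ± 0.31 in Zeb1ΔM and 0.72 ± 0.32 in Zeb1WT, a difference of -1.59 ± 0.44 on the log2 scale (edgeR adjusted p = 0.143). For Insig1 the difference was 1.18 ± 0.34 (edgeR adjusted p = 0.146), for Abca1 0.89 ± 0.26 (edgeR adjusted p = 0.162) and for Idi1 0.94 ± 0.30 (edgeR adjusted p = 0.202). The 4 genes called by DESeq2 were Nr1h3 (adjusted p = 0.03504), Insig1 (adjusted p = 0.0430), Msmo1 (adjusted p = 0.0443) and Abca1 (adjusted p = 0.0468). Nr1h3 and Insig1 were also called without the count filter in edgeR (adjusted p = 0.00350 and 0.0177), Insig1 in the fit of only the groups compared (adjusted p = 0.0484), and Nr1h3 without Zeb1WT LPS replicate 3 (adjusted p = 0.0490). Whether these 4 genes responded to metformin differently in Zeb1ΔM than in Zeb1WT thus depended on the fit. Of the 4, Msmo1 was not called after Metformin + LPS in either genotype. Apart from Nr1h3, Insig1 and Abca1, no gene called in Zeb1ΔM alone had a called interaction in any fit. After LPS + LPS the interactions nearest to the threshold among the 33 were those of Abca1 at 0.80 ± 0.26 (edgeR adjusted p = 0.439) and Msmo1 at -0.85 ± 0.29 (edgeR adjusted p = 0.480).

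The 2 arms can be set against each other within a library as the mean log2(CPM + 0.5) of the 17 enzymes minus that of the 5 LXR and export genes. After LPS + LPS this balance was -2.75, -2.79 and -3.13 in Zeb1ΔM and -2.15, -2.73 and -2.91 in Zeb1WT. After Metformin + LPS it was -3.50, -3.51 and -3.75 in Zeb1ΔM and -3.81, -3.24 and -3.36 in Zeb1WT. After LPS it was -3.89, -4.06 and -4.17 in Zeb1ΔM and -3.61, -3.70 and -4.46 in Zeb1WT. The LPS + LPS libraries were thus above the LPS libraries in each genotype, the Metformin + LPS libraries lay between the other groups in Zeb1ΔM, and they overlapped the LPS libraries in Zeb1WT. The mean of the enzymes was 3.85 in Zeb1ΔM and 4.09 in Zeb1WT after LPS + LPS, against 2.77 and 2.84 after LPS. The mean of the 5 LXR and export genes was 6.74 in Zeb1ΔM and 6.69 in Zeb1WT after LPS + LPS, against 6.81 and 6.77 after LPS, with Nr1h3 and Abcg1 higher and Abca1, Mylip and Apoe lower in the fits. These are descriptions of the chosen genes, with no test.

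**Figure D5:**
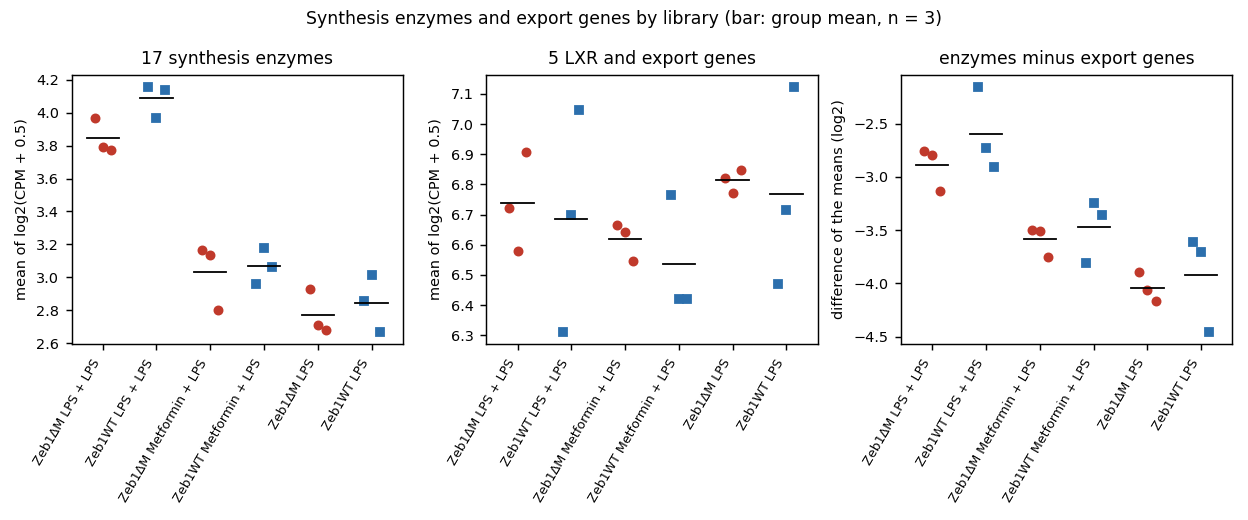
Mean log2(CPM + 0.5) of the 17 synthesis enzymes (left), of the 5 LXR and export genes (middle) and their difference (right) in each library, with Zeb1ΔM libraries as red circles, Zeb1WT libraries as blue squares and a bar for the mean of 3. The difference lies between -3.13 and -2.15 in the LPS + LPS libraries and between -4.46 and -3.61 in the LPS libraries.

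Of 20 other genes of the sterol pathway 18 were tested. After LPS + LPS 4 rose and 2 fell in Zeb1ΔM, where 15.8% of all genes rose and 16.9% fell. In Zeb1WT 7 rose and 2 fell, where 18.6% of all genes rose and 18% fell. Erg28, a scaffold of the demethylation complex, and Tmem97, which binds NPC1, rose by 1.46 ± 0.31 and 1.30 ± 0.31 in Zeb1ΔM and by 1.73 ± 0.31 and 1.24 ± 0.31 in Zeb1WT on the log2 scale. Por, the electron donor of the sterol oxidases, fell by 1.03 in Zeb1ΔM and 1.36 in Zeb1WT on the same scale. After Metformin + LPS 0 rose and 3 fell in Zeb1ΔM, against 12.6% and 13.6% of all genes. In Zeb1WT 1 rose and 4 fell, against 13% and 12.3% of all genes. None of the 18 was called between genotypes within a treatment in edgeR. An unadjusted p under 0.05 was seen for 3 after LPS, 2 after LPS + LPS and 4 after Metformin + LPS. Among all 13443 genes these numbers were 1844, 1575 and 2779.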

How the data were processed

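Raw counts per gene, whole numbers as the authors deposited them, covered 55573 genes in 18 libraries whose totals ran between 14053706 and 30570439. The submitters' processing notes name STAR, RSEM and DESeq2 with the mouse build GRCm38, and versions and the use of strand in counting are not given in the sources used here. Libraries were grouped by their labels, 3 per group.

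Counts were fitted over all 18 libraries and 6 groups in R 4.3.3 with edgeR 4.0.16 (filterByExpr with a minimum count of 10 and a minimum total of 15, TMM factors, quasi-likelihood test, Benjamini-Hochberg adjustment over 13443 genes). Contrasts were each treatment against LPS within a genotype, Zeb1ΔM against Zeb1WT within each treatment and as the mean of the 3 treatments, and the interactions. CPM values are TMM-normalized. The fits were checked on simulated data. All 33 genes were to be named, plus up to 4 of each other pathway list per comparison, those with the smallest adjusted p, and some genes of these lists are not reported here. The 33 genes and all lists were chosen with earlier results of these data known, so counts over a list describe it and carry no test. The balance used a pseudocount of 0.5 CPM. Gene positions came from GENCODE vM21, which held 55094 of the 55573 identifiers (99.1%), and upstream windows from RefSeq (GRCm38.p6).

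Alternatives were median-of-ratios size factors, the Wald test of DESeq2 1.42.0, no count filter, a replicate block, a fit of only the groups compared, each library left out, and a pseudocount of 2 CPM for the balance. No 2 libraries of a group agreed within sampling noise (lowest chi-square per degree of freedom 17.3).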

Additional observations from a re-analysis of the deposited data

How the results depend on the processing

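No called log2 fold change of the 33 genes turned round under any alternative run, but some that were not called did, such as Sqle between genotypes after Metformin + LPS (-1.08 to 0.35) and Cyp51 after LPS + LPS in Zeb1WT (-0.08 to 0.51). DESeq2 called 2 members between genotypes after LPS + LPS, 4 after Metformin + LPS and 5 over the mean of treatments, 11 for Metformin + LPS in Zeb1WT and 4 for the metformin interaction. Without the count filter these were 2 after LPS + LPS, 11 for Metformin + LPS in Zeb1WT and 2 for the metformin interaction. The fit of only the groups compared called 1 member between genotypes after Metformin + LPS and 1 for the metformin interaction, Insig1 in both, and lost Npc2 and Msmo1 between genotypes. The replicate block called 1 member between genotypes after Metformin + LPS and left the other member counts within 1.5 times. The replicate numbers did not pair the samples: 3 of 45 same-number pairs correlated above 0.1 (r -0.089 to 0.15), and 8 of 18 libraries correlated best with their own number. Leaving out single libraries gave 18 to 20 members called for LPS + LPS in Zeb1ΔM and 18 to 23 in Zeb1WT, 5 to 14 for Metformin + LPS in Zeb1ΔM and 5 to 7 in Zeb1WT. Between genotypes it gave 1 to 2 after LPS, 0 to 1 after LPS + LPS, 0 to 3 after Metformin + LPS and 1 to 4 over the mean of treatments, and for the interactions 0 to 0 and 0 to 1. Over all genes, the genotype calls after LPS, LPS + LPS and Metformin + LPS were 154, 91 and 789, against 505, 382 and 1371 by DESeq2 and 738, 640 and 1213 without the filter. Leaving out single libraries gave 55 to 232, 29 to 397 and 321 to 965. The fit of only the groups compared called 0 after LPS + LPS and 505 after Metformin + LPS. The interactions, 0 for LPS + LPS and 21 for metformin, were 74 and 300 by DESeq2, 236 and 601 without the filter, and 44 for metformin with only the groups compared. The causes of these differences were not tested. With a pseudocount of 2 CPM the balance was -2.77 in Zeb1ΔM and -2.49 in Zeb1WT after LPS + LPS, -3.37 and -3.23 after Metformin + LPS, and -3.73 and -3.61 after LPS. Depth limits the low genes: Scd2, Dhcr7, Mvk, Tm7sf2, Hsd17b7 and Stard4 had few counts after LPS, and their fitted folds are the least certain.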

Other observations

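Genes of fatty acid synthesis that follow SREBP1 (12 tested of 15 listed) counted 1 higher and 2 lower in Zeb1ΔM after LPS + LPS, where 15.8% of all genes rose and 16.9% fell, and 3 higher and 5 lower in Zeb1WT, where 18.6% rose and 18% fell. Scd1, the desaturase of the same family as Scd2, fell in Zeb1WT (log2 fold change -3.95 ± 0.54 SE, edgeR adjusted p = 1.52e-05), and Acaca, which makes malonyl-CoA, fell by 1.00 in Zeb1ΔM and 1.68 in Zeb1WT on the log2 scale. After LPS Scd1 was lower in Zeb1ΔM, with 5.28, 6.68 and 5.86 CPM against 19.5, 21.8 and 36.3 CPM in Zeb1WT (log2 difference -2.12 ± 0.49 SE, edgeR adjusted p = 0.0412). After Metformin + LPS 5 rose and 2 fell in Zeb1ΔM, where 12.6% of all genes rose and 13.6% fell, and 2 rose and 2 fell in Zeb1WT, where 13% rose and 12.3% fell. Acly, which supplies cytosolic acetyl-CoA, had 1165, 1046 and 715 CPM after Metformin + LPS in Zeb1ΔM, against 260.4, 327 and 285 CPM after LPS (log2 fold change 1.75 ± 0.23 SE, edgeR adjusted p = 7.78e-05). In Zeb1WT Acly had 472, 708 and 860.1 CPM after Metformin + LPS, against 229.8, 298 and 283 CPM after LPS (log2 fold change 1.33 ± 0.23 SE, edgeR adjusted p = 0.000460). Acss2, which makes acetyl-CoA from acetate, rose as well, by 2.75 ± 0.60 in Zeb1ΔM and 1.71 ± 0.57 in Zeb1WT on the log2 scale.

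Other genes of LXR signalling and lipid handling (21 tested of 22 listed), to be set beside the same shares of all genes, counted 6 higher and 6 lower in Zeb1ΔM and 3 higher and 6 lower in Zeb1WT after LPS + LPS. Ch25h, which makes 25-hydroxycholesterol, had 15.4, 20.5 and 28.6 CPM after LPS + LPS in Zeb1ΔM, against 126, 47.5 and 82.3 CPM after LPS (log2 fold change -1.99 ± 0.31 SE, edgeR adjusted p = 7.83e-05). In Zeb1WT Ch25h had 20.9, 15.9 and 10.7 CPM after LPS + LPS, against 75.1, 107 and 97.5 CPM after LPS (log2 fold change -2.56 ± 0.32 SE, edgeR adjusted p = 5.13e-06). Nceh1, a hydrolase of cholesterol esters, fell by 1.29 in Zeb1ΔM and 2.08 in Zeb1WT, and the lipoprotein receptor Scarb1 rose by 1.86 ± 0.31 and 1.97 ± 0.31 on the log2 scale. After Metformin + LPS 7 rose and 1 fell in Zeb1ΔM, and 8 rose and 3 fell in Zeb1WT. The log2 fold changes of Cd5l, an LXR target of macrophages, were 1.91 ± 0.30 in Zeb1ΔM and 2.24 ± 0.30 in Zeb1WT, and those of Mertk, a receptor for dying cells, were 1.74 ± 0.28 and 1.16 ± 0.28. Nceh1 was also lower in Zeb1ΔM after LPS, with 16.5, 12.1 and 18.96 CPM against 39.04, 46.3 and 41.03 CPM in Zeb1WT (log2 difference -1.41 ± 0.20 SE, edgeR adjusted p = 0.00234).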
